A study of Mus musculus with 2 samples.

Results

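The p53 pathway and GADD45 genes examined here were Trp53, Mdm2, Mdm4, Ccng1, Sesn1, Sesn2, Trp53inp1, Gadd45a, Gadd45b and Gadd45g. They were taken as the noncontrol probes whose gene name in the array files is one of these symbols, which gave 12 probes in 13 spots for the 10 genes, of 55681 noncontrol probes and 24325 named genes. The arrays compare CD4 T cells from 2 mouse spleen cell cultures collected after 24 h with ovalbumin (OVA) at 0.1 mg/mL. All cells came from female mice of the strain OVA-TCR-Tg, whose transgenic T cell receptor recognises OVA; the labels give neither their age nor whether animals were pooled. In the naive-only culture, spleen cells at 2500000 per mL met OVA. In the co-culture, spleen cells at 1250000 per mL met OVA beside an equal number of spleen cells of the same strain that had first been stimulated with the superantigen TSST-1 at 0.1 μg/mL, and that the labels call anergic, a state in which T cells answer antigen weakly. No label states that sorting separated the 2 kinds of cells of the co-culture, so its RNA can hold both. The comparison is thus of CD4 T cells from a naive-only culture with those from a culture that may mix both kinds. It cannot show the change of naive T cells alone, and the density of naive spleen cells also differed.

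The transcription factor p53, encoded by Trp53, is held at a low level by the ubiquitin ligase Mdm2 and the related protein Mdm4, and is freed by DNA damage and other stress. It then switches on genes that stop the cell cycle, repair DNA, restrain growth signals or kill the cell, and Mdm2 is one of those genes, which closes a feedback loop. The GADD45 proteins are small stress-induced proteins that bind the kinase Map3k4 and so activate p38 and JNK signalling. In T cells, Gadd45b and Gadd45g are known for supporting interferon gamma production, and many GADD45 and sestrin genes respond to stress signals other than p53.

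Each group had 1 single-colour array, so there is no replicate spread, no test between the groups and no p-value. Values are given as processed intensity (linear scanner units after background subtraction), as level (log2 intensity relative to the array's 75th percentile) and as difference (level in the co-culture minus level in the naive-only culture, log2). The error after ± is the scanner software's technical error and leaves out the variation between cultures. For bright spots it was close to a fixed fraction of intensity, so it is not a measured spread. For the p53 pathway and GADD45 genes, read by their brightest probe, the error of a difference ranged only from 0.204 to 0.225. Probes printed repeatedly varied less, with a median SD between spots of 0.062 (naive-only) and 0.058 (co-culture), log2. A comparison with the error of a bright probe is thus with a nearly constant value. A probe counted as measured where the software called it well above background on both arrays, and 25744 probes were above background on the naive-only array against 25136 on the other. All 12 markers of CD4 T cells were measured, none differed by 2-fold, and Cd4 itself differed by 0.35 ± 0.20. They were not level, with differences from -0.92 to 0.90, 8 positive and 4 negative. Markers of B cells and class II antigen presentation were also measured, 12 of 14, and all 12 were at least 2-fold lower in the co-culture, with a summed intensity of 72243 in the naive-only and 15809 in the co-culture sample. Of their defining markers, Pax5 and Blk passed background in the naive-only sample alone. Of 14 markers of CD8 T, natural killer, myeloid and dendritic cells, 12 were measured and 3 were at least 2-fold lower. The natural killer marker Ncr1 passed background in the naive-only sample alone. Its bound was 2.38-fold lower (-1.25, log2), and the technical error of its difference was 1.46. The summed intensities of the 14 markers were 57065 and 54053, most of it from the Siglech probe. The other 13 summed to 8143 and 8789. Genes of mitosis were higher in all 15 of 15 cases, with a median difference of 2.64 and summed intensities of 27282 and 204777. This list, like all 7 lists used here, was chosen with earlier results of these data known. Its count is a description and not independent support.

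All 10 genes were measured on both arrays. Sesn2 and Gadd45a were at least 2-fold higher in the co-culture, Gadd45b was at least 2-fold lower, and the remaining 7 genes differed by less than 2-fold. Read by their brightest probe, Trp53, Mdm2, Mdm4, Ccng1, Sesn1 and Trp53inp1 differed by no more than 1.15-fold, each by less than its own technical error. The second Mdm4 probe differed by 0.52 ± 0.23 (1.43-fold). Of all measured genes, 69.3% had a difference at least as large as that of Sesn1, the largest of these 6. Over all 13009 named genes measured, 8.26% passed 2-fold upward and 5.19% downward, 13.4% in either direction. With 3 of 10 genes past 2-fold, nothing particular to these genes is read from that share. Their median difference was 0.11, against -0.04 over all measured genes, and 7 of the 10 were positive, against 46.5% of all measured genes.

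**Figure D1:**
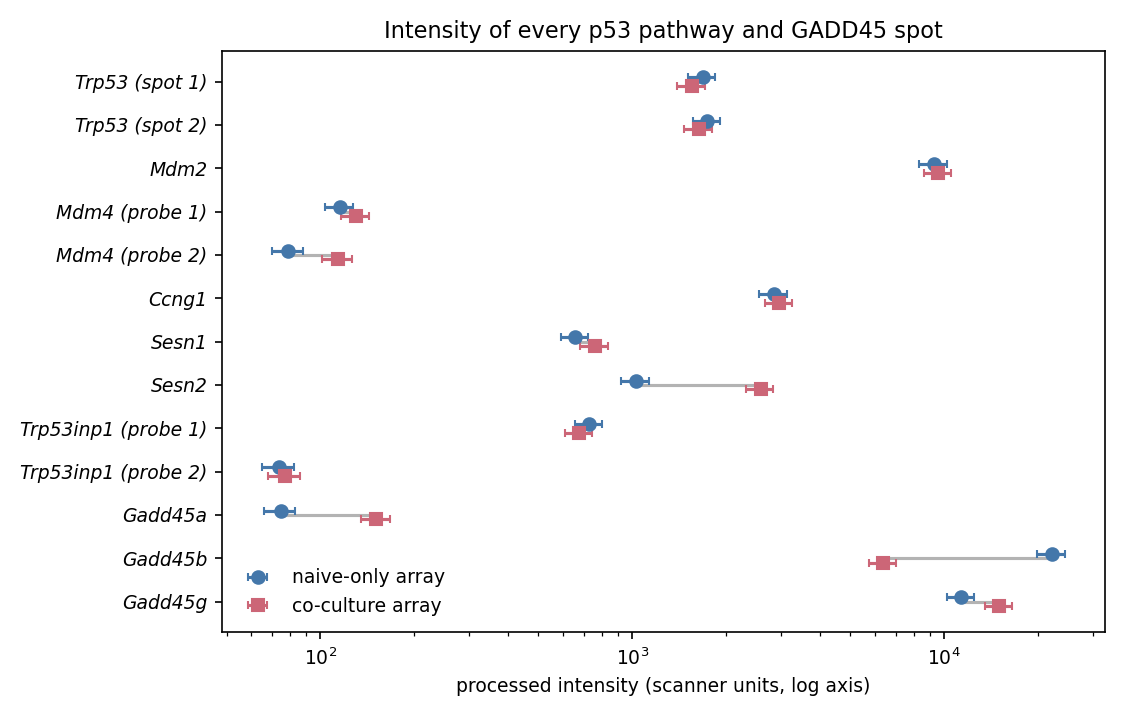
Processed intensity (scanner units, log axis) of each of the 13 spots on the naive-only array (blue circles) and the co-culture array (red squares); bars are the scanner software's error of the spot. The symbols separate for Sesn2, Gadd45a and Gadd45b and lie close together for Trp53, Mdm2 and Ccng1; intensities of different probes are not comparable with each other.

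Gadd45b had the largest difference of the 10. Its product is the GADD45 protein best known as a target of NF-kappaB and as a brake on cell death. The probe read 22179 intensity units in the naive-only sample and 6377 in the co-culture, with software errors of 2218 and 638, so the signals stood apart by far more than either error. On the log2 scale the level was 6.21 and 4.40, a difference of -1.81 ± 0.20, or 3.50-fold lower. Among all measured genes, 210 had a lower difference, and 4.44% had a difference at least as large in size. The spot's mean signal was bright, at 358 and 98.9 times its local background. The difference stayed between -1.81 and -1.74 under the 9 alternatives that were run, of which only the other scalings could move it by much. Fewer cells with this transcript and less transcript per cell cannot be told apart in such bulk RNA. Markers of B cells and class II antigen presentation were at least 2-fold lower on the same array (12 of 12 measured), as were 3 of 12 measured markers of other leukocytes. Their part in the Gadd45b difference was not tested.

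Gadd45a, the family member first described as a p53 target in DNA damage, went the other way. Its probe read 74.5 intensity units in the naive-only sample and 151 in the co-culture, with errors of 8.59 and 15.8. The level was -2.01 and -0.996, a difference of 1.01 ± 0.22, or 2.02-fold higher, and 1054 measured genes had a higher difference. This was a dim spot, its mean signal at 2.23 and 3.48 times its local background, and its value sits almost on the 2-fold limit. With normexp background correction and quantile scaling the difference was 0.66, below 2-fold. Under the 4 other scalings it was 1.02 to 1.06. A stricter filter on dim probes removed the gene.

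Gadd45g, which like Gadd45b is tied to cytokine production in helper T cells, read 11354 intensity units without and 15033 with the anergic cells. Its level was 5.24 and 5.64, a difference of 0.40 ± 0.20, or 1.32-fold, which is 1.94 times its technical error and short of 2-fold. Of all measured genes, 45.6% had a difference at least as large. The 3 family members therefore did not share a direction. The differences of Gadd45a and Gadd45b lay 2.82 ± 0.30 apart (log2, technical error), those of Gadd45g and Gadd45b 2.20 ± 0.29 apart, and those of Gadd45a and Gadd45g 0.61 ± 0.30 apart, the last gap being 2.03 times its error.

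The probes that read these genes are shown because each GADD45 gene, and Sesn2, rests on a single probe. These are the first 30 of each probe's 60 bases, 5′ to 3′ as the array files give them.
Gadd45a: aagggacaaaaactacaaagcactgcaaga
Gadd45b: ctatatctctctagaggaacgctgagaccc
Gadd45g: acttagccgactgcactgctctttcaaaaa
Sesn2: agcccgtggtggtctccctgctgtctgaag
The Gadd45a probe lies at chr6:66985376-66985435 on the minus strand, the Gadd45b probe at chr10:80394367-80394426 on the plus strand, the Gadd45g probe at chr13:51943733-51943792 on the plus strand and the Sesn2 probe at chr4:132048858-132048917 on the minus strand (mm9, per the file headers). Each is assigned by the files to 1 RefSeq transcript of its gene; exon and UTR annotation of mm9 was not used here. Over all 66 pairs among the 12 probes, the longest run of bases shared by 2 probes on either strand was 11 bases (Sesn2 and Trp53), and among the GADD45 probes it was 7, so none of the 3 GADD45 probes holds a long stretch of another's sequence.

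**Figure D2:**
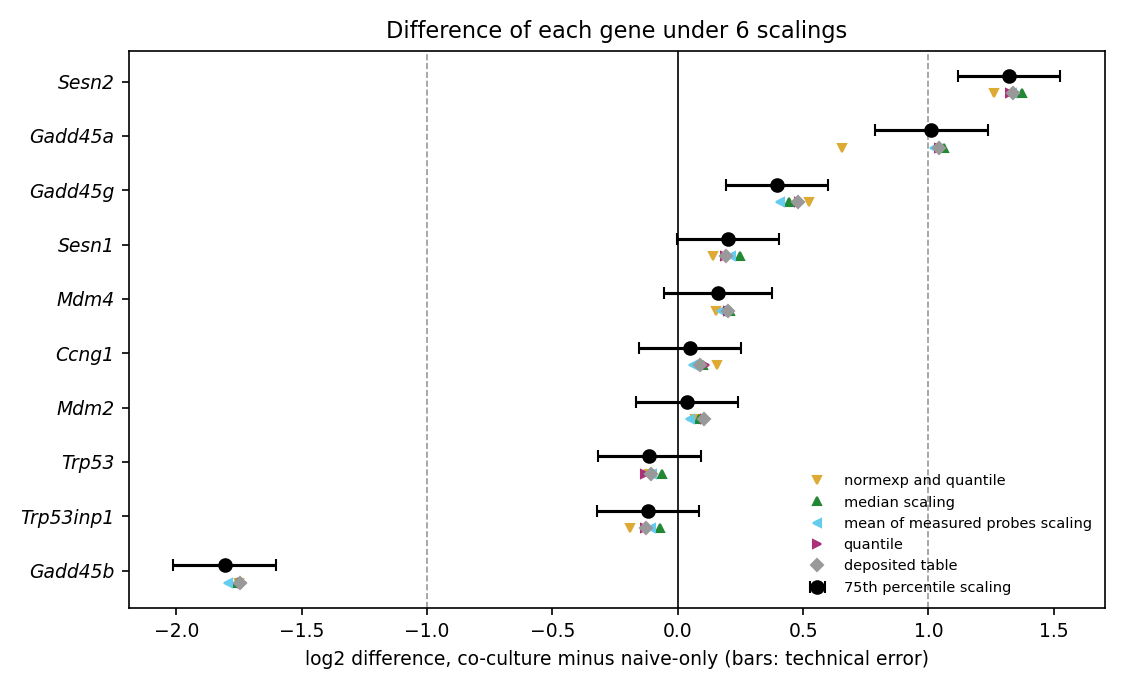
Log2 difference, co-culture minus naive-only, of each gene with 75th percentile scaling (black circles, bars are the technical error) and under 5 other scalings (coloured symbols); dashed lines mark 2-fold. Gadd45b lies near -1.81 and Sesn2 near 1.32 under all of them, while Gadd45a moves from 1.01 to 0.66 with normexp.

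The sestrins are stress-induced proteins that restrain mTORC1, the growth kinase complex, through the GATOR complexes, and Sesn2 is also a sensor of leucine. Sesn2 read 1026 intensity units in the naive-only sample and 2581 in the co-culture, with errors of 103 and 258. Its level was 1.78 and 3.10, a difference of 1.32 ± 0.20, or 2.50-fold higher. Of all measured genes, 691 had a higher difference and 8.35% had one at least as large in size. Its mean signal stood at 18.9 and 44.9 times its local background, and the difference ranged from 1.26 to 1.37 over the other scalings. Sesn1, the sestrin most often described as a p53 target, read 655 and 758 units (probe at chr10:41628012-41628071, mm9), a difference of 0.20 ± 0.20. Sesn3, a sestrin known as a target of FOXO factors, differed by -0.22 ± 0.20. The differences of Sesn2 and Sesn1 lay 1.12 ± 0.29 apart, and those of Sesn2 and Sesn3 1.55 ± 0.29 apart. Within the family, Sesn2 alone passed 2-fold.

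Trp53 itself was printed in 2 spots of 1 probe (chr11:69404204-69404263, plus strand, mm9). The spots read 1682 and 1742 intensity units in the naive-only sample and 1552 and 1635 in the co-culture, each with a software error of 155 to 174 units. Both co-culture spots were below both naive-only spots, but the difference of the means was smaller than its technical error. That error was about as large as for bright genes read in 1 spot, although Trp53 had 2. The mean level was 2.52 and 2.40, a difference of -0.11 ± 0.20. Of its relatives, Trp73 differed by -0.05 ± 0.21 and Trp63 by -0.72 ± 0.20, which is 1.64-fold lower and short of 2-fold.

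Mdm2, the main ubiquitin ligase for p53, read 9271 units in the naive-only sample and 9571 in the co-culture (chr10:117126010-117126069, minus strand, mm9). Its level was 4.95 and 4.99, a difference of 0.04 ± 0.20, and 94.2% of all measured genes differed by more. Mdm4, which binds p53 and blocks its transcriptional activity, had 2 dim probes lying 1981 bases apart. The brighter (chr1:134888407-134888466) read 115 and 130 units, a difference of 0.16 ± 0.21. The other (chr1:134886426-134886485) read 78.9 and 114 units, a difference of 0.52 ± 0.23. The probes differed by 0.36 ± 0.31, about their combined error, and neither passed 2-fold. Mdm2 and the brighter Mdm4 probe thus showed no difference beyond technical error, while the dimmer Mdm4 probe exceeded its error.

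Ccng1, which encodes cyclin G1, an established p53 target that recruits a phosphatase to Mdm2, read 2843 and 2962 units (chr11:40562427-40562486, minus strand, mm9), a difference of 0.05 ± 0.20. Its paralogue Ccng2, better known as a FOXO target in resting cells, went from a level of -3.27 in the naive-only sample to -0.92 in the co-culture, a difference of 2.34 ± 0.28. With normexp this was 1.31. The cyclin G genes therefore lay 2.29 ± 0.35 apart. Trp53inp1, a p53-inducible nuclear protein that also acts in autophagy, had 2 probes lying 8644 bases apart. The brighter (chr4:11101174-11101233) read 729 and 675 units, a difference of -0.12 ± 0.20. The dimmer (chr4:11092530-11092589) read 73.6 and 77.1 units, a difference of 0.06 ± 0.24. The probes differed by 0.18 ± 0.31, within their combined error, and the paralogue Trp53inp2 differed by 0.18 ± 0.21.

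**Figure D3:**
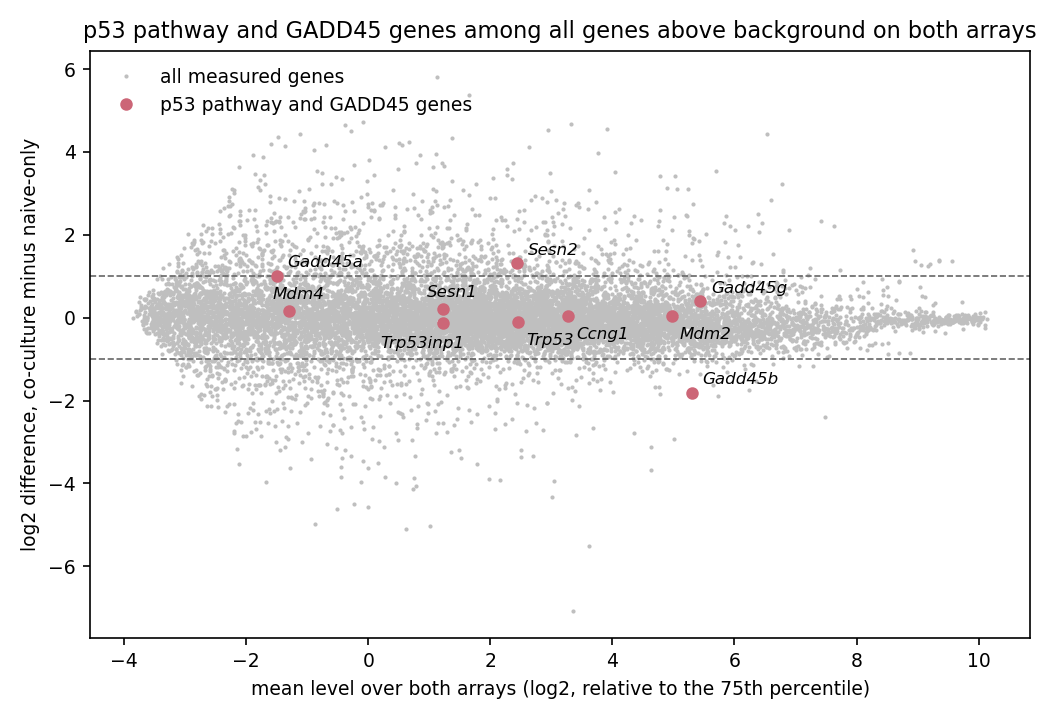
Difference (log2, co-culture minus naive-only) against mean level over both arrays (log2, relative to the 75th percentile) for the 13009 genes measured on both arrays (grey) and the 10 p53 pathway and GADD45 genes (red); dashed lines mark 2-fold. Gadd45b lies below the lower line among bright genes, Sesn2 above the upper line, Gadd45a on it, and the others within.

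A list of 27 genes held kinases, modifiers and partners upstream of p53, and also its relatives Trp63 and Trp73. Of these 27, 25 were measured. Of the 25, 1 passed 2-fold upward and 0 downward, against 8.26% and 5.19% of all measured genes. The list's median was -0.03, against -0.04. The one gene past 2-fold was Ppp1r13l, which encodes iASPP, an inhibitor of p53, with a level of 1.03 and 2.20 and a difference of 1.18 ± 0.20. Atm, the kinase that signals DNA double-strand breaks, differed by -0.33 ± 0.20. Chek1, the checkpoint kinase of stalled replication, passed background in the naive-only sample alone, at a level of -3.74, near the lowest level above background (-4.03). Its bound of 1.11-fold lower in the co-culture (-0.15, log2) is smaller than the technical error of its difference (0.52), so no direction is read. Cdkn2a, whose product ARF inhibits Mdm2, differed by -0.02 ± 0.21, and Ppm1d, a phosphatase that turns p53 signalling off, by -0.03 ± 0.21. Trp53rk was the 1 gene of this list with no probe under its listed symbol.

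Of a list of 40 genes, most of them described as p53 targets, 36 were measured. Of these, 11 (30.6%) passed 2-fold upward and 1 (2.78%) downward, against 8.26% and 5.19% of all measured genes. The list also holds Ccng2 and Sesn3, named above as FOXO targets, and the paralogue Trp53inp2. These shares are thus not those of p53 targets alone. Ccng2, the largest of the 11, was dim in the naive-only sample (level -3.27, lowest above background -4.03). The list's median was 0.30, against -0.04. The remaining 4, Dram1, Gdf15, Eda2r and Rprm, stayed at background in both samples (not well above background). Among the higher genes, Cdkn1a, which encodes the cyclin-dependent kinase inhibitor p21, went from a level of 1.87 to 4.19, a difference of 2.32 ± 0.20, or 4.99-fold. Bbc3, which encodes the BH3-only death protein PUMA, differed by 1.39 ± 0.20, and Pmaip1, which encodes NOXA, by 0.97 ± 0.21, just short of 2-fold (1.02 with median scaling). Besides Ccng2, Cdkn1a and Bbc3, the others of the 8 largest were Gtse1 (2.05), Trp53i11 (1.93), the glutaminase gene Gls2 (1.73), Ckap2 (1.46) and Psrc1 (1.36). The second probe of Trp53i11 gave 2.02. Gtse1, Ckap2 and Psrc1 encode proteins of microtubules and the mitotic spindle. The mitosis list, chosen with earlier results known, was higher in 15 of 15 genes on the same array. Its part in these differences was not tested. The 1 lower gene was Fas, the death receptor gene, at a level of 2.11 and 0.71, a difference of -1.40 ± 0.20. Bax, the pore-forming death protein gene, differed by -0.40 ± 0.20. With only brighter genes kept, 22 targets were left, 4 of them at least 2-fold higher, and the median was -0.26, the opposite sign. Of all 7944 genes kept there, 424 were at least 2-fold higher.

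The partners of GADD45 and sestrin proteins were measured in 26 of 28 cases, with 3 (11.5%) past 2-fold upward and 0 downward, against 8.26% and 5.19% of all measured genes, and a median of 0.13. The upward share is near that of all genes. Ccnb1 and Cdk1, the cyclin and kinase of the mitotic complex that GADD45 proteins can inhibit, differed by 2.73 ± 0.20 and 1.64 ± 0.20. The 15 mitosis genes, a list chosen with earlier results known, were higher on the same array, and their part was not tested. Map2k6, which encodes a kinase that activates p38, had a level of -1.46 and 0.50, a difference of 1.96 ± 0.21, or 3.88-fold higher. Map3k4, the kinase bound by GADD45 proteins, differed by 0.26 ± 0.20, and Gadd45gip1, which encodes a GADD45-binding mitochondrial protein, by -0.37 ± 0.20. Mapk13, which encodes a p38 kinase, passed background in the co-culture alone, at a level of -3.53, near the lowest level above background (-3.90). Its bound of 1.41-fold higher (0.49, log2) is no larger than the technical error of its difference (0.50), so no direction is read. Prkaa2 was not well above background in either sample.

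**Figure D4:**
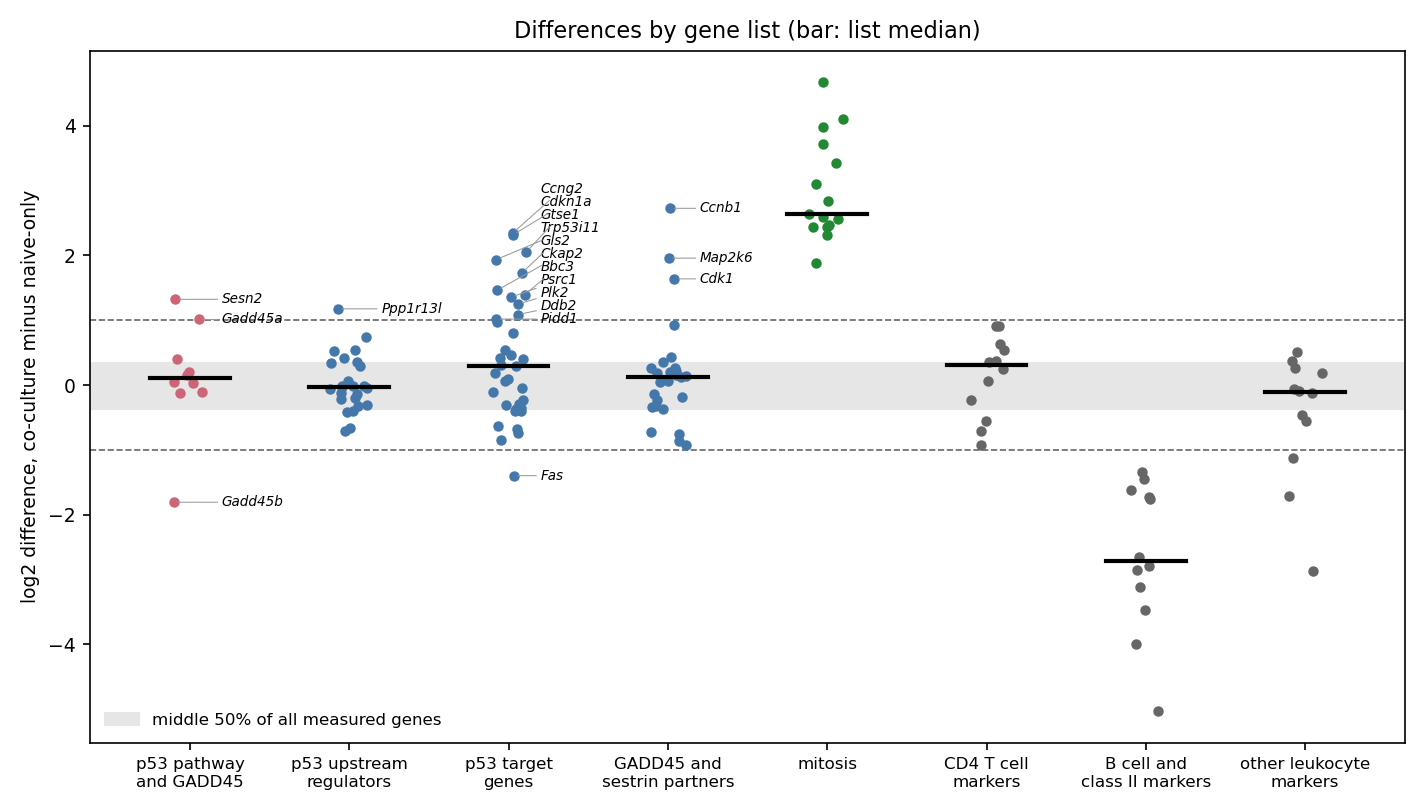
Log2 difference, co-culture minus naive-only, of the measured genes of each list (points), with the list median (bar), 2-fold limits (dashed) and the middle 50% of all measured genes (grey band, -0.37 to 0.34). Genes of the upstream list lie mostly near the band, and 11 of 36 genes of the target list lie above the upper limit. All 15 mitosis genes lie above the upper limit and all 12 measured B cell and class II markers below the lower. The lists were chosen with earlier results of these data known.

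The promoters of the 3 genes past 2-fold are printed to show the sequence from which these transcripts start. Each is the 250 bases before the transcript start (RefSeq, GRCm38.p6), 5′ to 3′ on the gene's strand, at chr4:132510457-132510706 (minus) for Sesn2, chr6:67037408-67037657 (minus) for Gadd45a and chr10:80929841-80930090 (plus) for Gadd45b. Capitals mark matches, on either strand, to any of 7 motifs: the p53 half-site, the kappaB site, AP-1 (TGANTCA), CRE (TGACGTCA), ATF4-C/EBP (TGATGNAA), EGR (GCGNGGGCG) and the E-box (CACGTG).
Sesn2: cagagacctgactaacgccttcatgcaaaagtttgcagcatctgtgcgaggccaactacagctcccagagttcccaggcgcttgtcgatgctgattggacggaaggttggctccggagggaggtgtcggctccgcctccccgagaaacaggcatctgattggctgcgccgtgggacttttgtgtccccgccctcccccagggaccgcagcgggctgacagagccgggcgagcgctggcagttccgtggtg
Gadd45a: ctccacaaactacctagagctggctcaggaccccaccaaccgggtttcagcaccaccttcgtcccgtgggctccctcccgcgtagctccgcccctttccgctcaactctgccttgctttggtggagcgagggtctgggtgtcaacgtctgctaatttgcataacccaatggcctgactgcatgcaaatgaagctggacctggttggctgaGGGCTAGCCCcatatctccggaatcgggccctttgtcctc
Gadd45b: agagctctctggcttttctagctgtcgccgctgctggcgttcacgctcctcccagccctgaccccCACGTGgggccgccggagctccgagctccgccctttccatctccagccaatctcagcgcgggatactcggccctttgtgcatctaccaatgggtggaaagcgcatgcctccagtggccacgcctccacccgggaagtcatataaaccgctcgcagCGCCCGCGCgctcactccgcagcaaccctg
The Sesn2 window held no match to any of them. The Gadd45a window held 1 p53 half-site, which begins 40 bases before the start. The Gadd45b window held an E-box 185 bases and an EGR match 30 bases before the start, and no kappaB match, and the marked matches do not overlap. Of 32851 windows of the same length, 7.13% held a p53 half-site, 7.25% a kappaB site, 6.75% AP-1, 1.55% CRE, 3.45% ATF4-C/EBP, 4.70% EGR and 6.02% the E-box. Of the 10 genes, 9 were found in the promoter table, with 11 windows, and 5 of them held a p53 half-site in at least 1 window (Trp53, Mdm2, Ccng1, Sesn1 and Gadd45a). Of these 5, 4 differed by less than their technical error, as did 6 of all 10 genes. No relation between a half-site and the difference is read from this. These are letter matches and not measured binding.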

How the data were processed

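RNA of sorted CD4 T cells was, per the labels' protocols, amplified with an Ovation kit and its cDNA labelled with Cy3 by a kit made for genomic DNA, steps that can shift relative levels. The deposited scanner files hold linear intensity, extracted with Agilent Feature Extraction 10.7.1.1 per the file headers, or 9.5.1.1 per the submitters' processing notes. Both arrays share a slide and scan. The authors' deposited value table is also intensity, equal in distribution between columns (sorted values within 0.0369%, median 14.5 in each) and matching the scanner values in rank (Spearman correlation 1), so its direction is that of the scanner files; it was not centred per gene, and no source used here states how it was normalized.

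Spots of a probe were averaged as log2 processed intensity, and the 75th percentile of noncontrol probes on that array (299.4 and 301.3 intensity units) was subtracted. A gene was read by its brightest probe over both arrays; Mdm4 and Trp53inp1 have their other probe printed too. The software marked no spot as saturated. Symbols were updated through RefSeq (GRCm38.p6) for 27235 probes, 5949 kept their array name and 22497 were unnamed. The unnamed probes were not read as genes but counted in the 75th percentile and in the numbers of probes above background. A bound compares the bright level with the higher of the lowest level above background and the dim probe's own. The technical error is not part of a bound. The steps were tested on simulated data. The number of arrays limits precision; probes printed repeatedly gave a median SD of 0.062 and 0.058 (log2) between spots. The groups came from the sample titles.

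The 10 genes and all 7 lists were chosen with earlier results of these data known. All 10 were named, with up to 8 genes past 2-fold in each direction per wider list, genes above background on 1 array only, and further genes named whatever their value (such as Cdkn1a, Bax, Atm and Map3k4). The 9 alternatives were normexp with quantile scaling, median scaling, scaling to the mean of measured probes, quantile scaling, the deposited table, the mean over a gene's measured probes, software-marked spots left out, no filter on dim probes and a stricter one. Calculations used Python 3.11.15, numpy 2.4.6, pandas 2.3.3, matplotlib 3.10.9 and R 4.3.3 with limma 3.58.1.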

Additional observations from a re-analysis of the deposited data

How the results depend on the processing

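With 1 array per group, no alternative can show the variation between cultures. No paired analysis was possible because each group has 1 array and the labels give no replicate numbers. Over the 10 genes and 9 alternatives, 88 values were obtained. All 88 had the direction of the reported value and 87 stayed on the same side of 2-fold, the exception being Gadd45a with normexp (0.66). Many of the 88 could not differ from the reported value. The filters on dim probes leave a gene's value unchanged, and averaging over probes can change only Mdm4 and Trp53inp1. No spot of these genes was marked by the software, so leaving out marked spots changed only the scaling. The counts therefore overstate stability. With normexp and quantile scaling, 1 of the 10 genes was at least 2-fold higher, 431 of all genes were at least 2-fold lower, and the B cell and class II median was -1.88. The target genes Plk2 (0.92), Pidd1 (0.90) and Ddb2 (0.996) were below 2-fold there. With no filter on dim probes, 2 of 40 targets and 1 of 28 partner genes were at least 2-fold lower. Of the 24325 genes then counted, 2272 were at least 2-fold higher and 1781 lower. With a stricter filter, 8 of the 10 genes were left and 1 was at least 2-fold higher. Under it, 4 of 22 targets were at least 2-fold higher with a median of -0.26, and 4 of 4 B cell and class II markers were lower with a median of -2.12. Of 5 other leukocyte markers, 0 were lower, with a median of 0.18. Of the 7944 genes left, 424 were higher and 202 lower. The median of all genes moved by at most 0.05 (log2) under any scaling.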

Other observations

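Another 7 genes, in none of the lists, have a description in the array files that names p53, and were measured on both arrays. None differed by 2-fold (differences of -0.87 to 0.66, log2), against 13.4% of all measured genes past 2-fold in either direction. With 7 genes, nothing particular to them is read from that count. Trp53rkb, a copy of the kinase gene that phosphorylates p53, differed by -0.87 ± 0.20, and Pdrg1, named as regulated by p53 and DNA damage, by -0.80 ± 0.20. Trp53i13 differed by 0.66 ± 0.20 and Mtbp, which encodes an Mdm2-binding protein, by 0.41 ± 0.20. Wrap53, which lies antisense to Trp53, differed by -0.22 ± 0.20, Tprkb by 0.19 ± 0.20 and Triap1 by -0.07 ± 0.20. These were chosen by their description after the other values were known.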
